A study of Homo sapiens with 2 samples.

Results

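Cyclins and cyclin-dependent kinases (CDKs) were examined in A549 cells, an epithelial cell line from a human adenocarcinoma of the lung, grown for 12 days in spheroid culture or for 12 days as a monolayer. The genes were chosen by name, with earlier results of these data known. They were CCNA2, CCNB1, CCNB2, CCND1, CCND3, CCNE1, CCNE2, CDK1, CDK2 and CDK4. This makes 10 of the 19775 genes measured, read by 23 of the 54675 probe sets. Spheroid cells were kept in suspension in DMEM/F12 without serum, to which N2 supplement, EGF at 20 ng/ml and bFGF at 10 ng/ml were added. Monolayer cells were kept attached in DMEM with 10% FBS, so attachment, medium, serum and growth factors all changed together. Each culture was measured once, on an Affymetrix Human U133 plus 2.0 array. With 1 array per culture there was no replicate check, no test was run, and every difference given here is between these 2 arrays.

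Cyclins are short-lived proteins that switch on their CDK partners in a fixed order through the cell cycle. D-type cyclins with CDK4 act in early G1 in answer to growth factors, E-type cyclins with CDK2 act at the entry into S phase, cyclin A2 acts through S phase and G2, and B-type cyclins with CDK1 drive mitosis. The RNAs of cyclin A2, the B-type cyclins and CDK1 are made mostly in late S phase and G2, so they are scarce in cells that do not divide. In the RNA of a whole culture, fewer cycling cells and less of such an RNA in each cell cannot be told apart.

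The 4 genes of the late cycle, CCNA2, CCNB1, CCNB2 and CDK1, had signals 8.55-fold to 16.1-fold lower in spheroid culture than in monolayer culture. CDK2 was 3.56-fold lower. CCND1, CCNE1 and CDK4 had nearly the same signal in both cultures, and CCND3 and CCNE2 lay between, 1.77-fold and 1.99-fold lower. Signals are the linear MAS5 values deposited by the authors, already scaled to a trimmed mean of 500.1 on each array. Values below the median of an array, 119 in spheroid and 108 in monolayer culture, were raised to that median, called the floor here, and a ratio with 1 culture under the floor is a lower bound ("at least"). Where several probe sets stood for a gene, the brightest over both arrays gave its value. Of the 10 genes, 5 were at least 3-fold lower in spheroid culture and 0 were at least 3-fold higher, while 2.11% and 2.34% of the 13229 genes above the floor on at least 1 array were past the same limits. At a limit of 2-fold the counts stayed at 5 lower and 0 higher, beside 5.5% and 6.86% of all genes. The median log2 ratio of spheroid over monolayer was -1.41 for the 10 genes and 0.04 for all genes above the floor.

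All 4 markers listed for A549 cells (AKR1B10, AKR1C1, ALDH1A1 and NQO1) and all 5 epithelial markers (EPCAM, KRT7, KRT8, KRT18 and CDH1) were above the floor on both arrays. Whether these markers tell A549 cells from other epithelial lines was not tested. The endothelial markers CDH5, VWF and KDR were at the floor on both, as were PTPRC of leukocytes and the fibroblast genes COL1A2, LUM and PDGFRB on the probe set used for each. The other fibroblast genes, COL1A1 and DCN, and the leukocyte gene CD3E were above it on both arrays, and CD14 was above it in monolayer culture only. Of 8 liver markers measured, 6 were above the floor in spheroid culture and 3 in monolayer culture, with a summed signal of 6243 in spheroid and 773 in monolayer culture. ALB, which encodes albumin, made up most of the spheroid sum with a signal of 4639, against 23.4 in monolayer culture. A description field that both samples carry names Huh7, a hepatoma line, and the compound PGG at hour 0 of treatment, whereas the cell line field and the protocols give A549 and name no such compound. The part of these liver transcripts in the cyclin results was not tested. The ratio of the 3′ to the 5′ control probe set, which grows as RNA is degraded, was 1.99 in spheroid and 1.55 in monolayer culture for ACTB, and 1.15 in spheroid and 1.09 in monolayer culture for GAPDH. Hybridisation controls added to the samples had log2 ratios between -0.19 and -0.01 over 9 probe sets.

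CDK1, the kinase of mitosis, had a signal of 575 in spheroid culture and 8885 in monolayer culture on its brightest probe set. This is a log2 ratio of -3.95, or 15.5-fold lower, and only 11 of the 13229 genes had a lower ratio. Another CDK1 probe set read 584 in spheroid and 4469 in monolayer culture, and the next read 321 in spheroid and 3558 in monolayer culture. All 3 were thus lower in spheroid culture, by 7.65-fold to 15.5-fold. The fourth CDK1 probe set was at the floor on both arrays, with 28.0 in spheroid and 98.1 in monolayer culture.

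CCNB2, which encodes cyclin B2, a partner of CDK1, had 304 in spheroid culture and 4890.5 in monolayer culture, 16.1-fold lower. Only 6 genes had a lower ratio, among them CDC20, TOP2A and FOXM1, which are themselves best known from G2 and mitosis. The other CCNB2 probe set above the floor, read 262 in spheroid and 295 in monolayer culture. These probe sets disagree, since the first differed 16.1-fold between the cultures and the second 1.13-fold. The third CCNB2 probe set was at the floor on both arrays, with 21.1 in spheroid and 57.2 in monolayer culture. Read as the geometric mean of all its probe sets, CCNB2 had a log2 ratio of -1.35, within 3-fold. A floor set at the 75th percentile of each array gave -3.32 in place of -4.01.

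CCNB1 encodes cyclin B1, the main cyclin of mitotic entry. Its brightest probe set read 592 in spheroid and 5773 in monolayer culture, 9.75-fold lower, and its second read 251 in spheroid and 1618 in monolayer culture, 6.44-fold lower. Both probe sets were above the floor on each array and lower in spheroid culture. The second alone is left when probe sets marked _s_at or _x_at by Affymetrix, whose probes several transcripts share, are set aside.

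CCNA2 encodes cyclin A2, which partners both CDK2 and CDK1. It read 225 in spheroid and 1920.4 in monolayer culture on its brightest probe set, 8.55-fold lower. The second probe set read 68.7 in spheroid culture, under the floor, and 1341 in monolayer culture, which is at least 11.3-fold lower. The 2 probe sets went the same way, and the log2 ratio of the brightest was -3.10, or -1.97 with the floor at the 75th percentile.

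The promoters of this late group are known to be held silent by the DREAM complex in resting cells and driven by MYBL2 and FOXM1 in dividing cells. DREAM is known to bind the cell cycle homology region, and the factor NF-Y binds CCAAT boxes beside it. Because these 4 genes were low together in spheroid culture, their promoters are printed from RefSeq (GRCh38.p14), from 250 bases before to 50 bases after the annotated start, 5′ to 3′ along the gene. CCNE1, whose signal was nearly the same in both cultures, is shown beside them. Capitals mark the CCAAT box, the letters TTTGAA that are usual in the cell cycle homology region, and E2F sites, searched as TTTCGCGC or as TTTGGCGC. Both strands were searched, so ATTGG stands for the first motif and TTCAAA for the second where they lie on the other strand. The windows are chr15:59104896-59105195 (plus strand) for CCNB2, chr10:60778228-60778527 (plus) for CDK1, chr5:69166900-69167199 (plus) for CCNB1, chr4:121823834-121824133 (minus) for CCNA2 and chr19:29811741-29812040 (plus) for CCNE1.
CCNB2: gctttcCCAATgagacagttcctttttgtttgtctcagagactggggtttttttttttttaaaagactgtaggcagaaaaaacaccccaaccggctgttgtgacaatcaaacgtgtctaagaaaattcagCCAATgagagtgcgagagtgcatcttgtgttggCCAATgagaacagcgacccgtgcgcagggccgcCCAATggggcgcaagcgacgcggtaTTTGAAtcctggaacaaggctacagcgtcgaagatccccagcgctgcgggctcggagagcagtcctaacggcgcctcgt
CDK1: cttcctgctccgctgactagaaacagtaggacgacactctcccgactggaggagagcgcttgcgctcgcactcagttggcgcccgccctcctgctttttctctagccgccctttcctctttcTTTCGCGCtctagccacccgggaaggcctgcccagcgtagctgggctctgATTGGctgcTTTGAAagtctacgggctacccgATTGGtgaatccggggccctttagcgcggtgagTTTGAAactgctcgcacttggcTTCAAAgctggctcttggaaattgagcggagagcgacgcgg
CCNB1: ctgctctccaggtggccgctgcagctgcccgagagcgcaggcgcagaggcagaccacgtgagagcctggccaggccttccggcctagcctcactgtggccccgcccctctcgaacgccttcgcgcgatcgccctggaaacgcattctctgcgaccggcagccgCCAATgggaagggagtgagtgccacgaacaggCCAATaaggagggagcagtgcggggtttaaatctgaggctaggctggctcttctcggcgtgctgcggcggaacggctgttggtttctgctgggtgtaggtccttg
CCNA2: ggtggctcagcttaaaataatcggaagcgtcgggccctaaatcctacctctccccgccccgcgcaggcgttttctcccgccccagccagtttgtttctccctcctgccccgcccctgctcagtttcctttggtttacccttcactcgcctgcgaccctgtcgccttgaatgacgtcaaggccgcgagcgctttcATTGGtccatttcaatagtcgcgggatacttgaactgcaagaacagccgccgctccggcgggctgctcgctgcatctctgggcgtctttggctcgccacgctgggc
CCNE1: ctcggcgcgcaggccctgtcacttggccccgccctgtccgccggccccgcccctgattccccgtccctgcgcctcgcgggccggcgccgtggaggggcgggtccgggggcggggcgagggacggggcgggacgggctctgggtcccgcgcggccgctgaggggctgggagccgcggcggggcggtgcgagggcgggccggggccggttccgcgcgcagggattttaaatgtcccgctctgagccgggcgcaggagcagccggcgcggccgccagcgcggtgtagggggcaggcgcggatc

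CCNB2 held 4 CCAAT matches, beginning at positions -244, -120, -87 and -54 from the start, and TTTGAA at -29. CDK1 held 2 CCAAT matches on the opposite strand at -78 and -46, 3 matches of TTTGAA at -69, -13 and 10, and TTTCGCGC at -128. CCNB1 held CCAAT at -87 and -55, and CCNA2 held it on the opposite strand at -56, both without TTTGAA. A second annotated start of CDK1, whose window overlaps the first, held each of the 3 motifs 1 time. CCNE1 and CDK4 held none of the 3 motifs in this window, and 2 of the 3 windows of CCND3 held 1 CCAAT each. Of 35116 RefSeq promoter windows, 34.6% held CCAAT, 15.2% held TTTGAA and 1.15% held an E2F site. A match is a run of letters and not a bound site. Whether DREAM, NF-Y or any of these motifs has a part in the ratios was not tested. Only these exact letters were searched, so a window without a match may still hold such a site in other letters. Windows were found for 7 of the 10 genes, all but CCND1, CCNE2 and CDK2.

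CDK2, the kinase of S phase entry, had 539 in spheroid culture and 1920.3 in monolayer culture, 3.56-fold lower. Its second probe set read 175 in spheroid and 536 in monolayer culture, 3.06-fold lower. The third was dark, with 30.3 in spheroid and 20.6 in monolayer culture. The 2 probe sets above the floor thus went the same way by a similar amount. The geometric mean over all 3 probe sets, with the dark one counted at the floor, gave a log2 ratio of -1.10 in place of -1.83, within 3-fold.

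CCNE2 and CCNE1 encode the E-type cyclins, the partners of CDK2. CCNE2 read 189 in spheroid culture and 375 in monolayer culture, 1.99-fold lower, just under the limit of 2-fold. Its other probe set read 44.0 in spheroid culture, under the floor, and 118 in monolayer culture, too close to the floor to give a direction. CCNE1 read 902 in spheroid and 839 in monolayer culture, a log2 ratio of 0.10 that turned to -0.03 when arrays were scaled to equal medians. The CCNE1 ratio is thus smaller than the change that scaling makes to it, while CCNE2 had a log2 ratio of -0.99.

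Among the D-type cyclins, which carry growth factor signals into the cycle, CCND1 (cyclin D1) read 2985 in spheroid and 2938 in monolayer culture. Its second probe set read 1422 in spheroid and 1446 in monolayer culture, and the log2 ratios were 0.02 and -0.02. The brightest probe set turned to -0.12 when arrays were scaled to equal medians, a setting that moved the median of all genes above the floor to -0.10. CCND3 (cyclin D3) read 5050.5 in spheroid culture and 8942 in monolayer culture, 1.77-fold lower, with its other probe set at the floor on both arrays. CDK4, the kinase that D-type cyclins activate, read 5744 in spheroid and 6443 in monolayer culture, 1.12-fold lower on its only probe set. Of this group CCND3 alone had a ratio further from 0 than 0.55 on the log2 scale, the SD between the 2 brightest probe sets of a gene over 6444 genes. This SD does not hold the variation between repeated cultures, which was not measured. With the geometric mean of both its probe sets, the one at the floor included, CCND3 had a log2 ratio of -0.34.

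In order of their log2 ratios, from the lowest, the genes ran CCNB2, CDK1, CCNB1, CCNA2, CDK2, CCNE2, CCND3, CDK4, CCND1 and CCNE1. The widest step between neighbours, 1.26, lay between CCNA2 and CDK2, and the next, 0.84, between CDK2 and CCNE2. CDK1 and CCNB1 were 0.66 apart, which is less than the span from -3.95 to -2.94 among the CDK1 probe sets, and CCND3 and CDK4 were 0.66 apart on 1 probe set each. All other neighbours differed by 0.19 or less, under the spread between probe sets, so their order is not resolved. The step between CCNA2 and CDK2 depends on the processing. With the floor at the 75th percentile CCNA2, then under the floor in spheroid culture, had -1.97 and CDK2 -1.83. With the geometric mean of all probe sets CCNB2 had -1.35 and CDK2 -1.10.

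**Figure D1:**
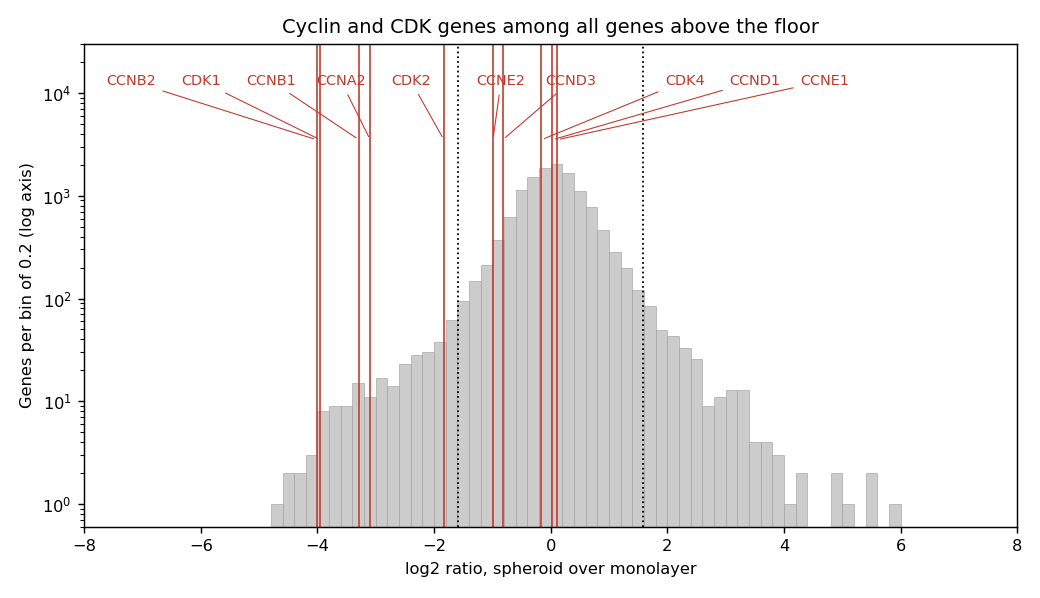
Number of genes (log axis) by log2 ratio (spheroid over monolayer) among the 13229 genes above the floor on at least 1 array, with the 10 cyclin and CDK genes as red lines and 3-fold lower and higher as dotted lines. CCNB2 and CDK1 lie at the far left edge of the distribution (-4.01 and -3.95), and CCND1 and CCNE1 lie at its centre (0.02 and 0.10).

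The other cyclins and CDKs above the floor were within 2-fold, apart from CCNF and CCNL2. Of 5 further cell cycle cyclins and CDKs measured, 1 was past 3-fold, 2 lay between and 2, CCNA1 and CCND2, were at the floor on both arrays. CCNF, the F-box cyclin of G2, read 139 in spheroid culture and 714 in monolayer culture, 5.15-fold lower. Its other probe set read 12.8 in spheroid culture, under the floor, and 207 in monolayer culture, at least 1.74-fold lower. The mean of both on the log2 scale was 2.99-fold lower, so CCNF was past 3-fold on its brightest probe set alone, and under a floor raised to the 75th percentile that probe set was at least 1.45-fold lower. CDK6, the close relative of CDK4, read 1939 in spheroid and 3114 in monolayer culture and was 1.61-fold lower, with all 4 probe sets above the floor lower. Of 13 cyclins and CDKs of transcription, such as CDK9 with cyclin T and CDK7 with cyclin H, 0 passed 3-fold in either direction. Their median log2 ratio was 0.10, which became -0.04 when arrays were scaled to equal medians. CCNL2, a cyclin linked to splicing, was 2.47-fold higher on its brightest probe set (4230 in spheroid, 1715 in monolayer), while 1 of its 3 probe sets above the floor was lower. Of 17 remaining cyclins and CDKs, none of the 15 above the floor passed 3-fold. Of all genes above the floor, 2.11% were at least 3-fold lower and 2.34% at least 3-fold higher. Counts of 0 in lists as short as these 2 therefore do not set them apart from other genes. CCNG2, a cyclin known from arrested cells, was 1.57-fold higher, and each of its 4 probe sets was higher. The median log2 ratio of these genes was 0.04, or -0.10 when arrays were scaled to equal medians.

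Among partners and activators of CDKs, a phosphatase and both small CKS proteins were lower in spheroid culture. CDC25C, the phosphatase that activates CDK1 at mitosis, read 55.7 in spheroid culture, under the floor, and 867 in monolayer culture, at least 7.28-fold lower. CKS1B and CKS2, small proteins that bind CDKs, were 3.78-fold and 2.93-fold lower. CDC25B, another phosphatase of this family, was 1.63-fold higher (17830 in spheroid, 10920.0 in monolayer), and CDC25A was at the floor in both cultures. Of 7 genes in this list, CDC25C and CKS1B were the 2 past 3-fold on the brightest probe sets, both lower. Another 4 lay between and 1 was at the floor, with -0.91 as the median log2 ratio of the list. Of all genes above the floor, 2.11% were at least 3-fold lower.

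CDK inhibitors went both ways. CDKN1A, which encodes p21, read 9084 in spheroid culture and 5589 in monolayer culture, 1.63-fold higher, and CDKN1B, which encodes p27, was 1.37-fold lower. CDKN3, a phosphatase that removes the activating phosphate from CDKs, was 10.7-fold lower, and PKMYT1, a kinase that blocks CDK1, was 3.40-fold lower. Of 9 genes measured, these 2 were past 3-fold, beside 2.11% of all genes at least 3-fold lower. A further 6 lay between and 1, CDKN2B, was at the floor, and the median log2 ratio of the list was -0.33. CDKN2A, which is known to be deleted in A549 cells, was at the floor on both arrays for 2 of its 3 probe sets. The last of them read 251 in spheroid culture and 85.9 in monolayer culture, and whether this signal comes from CDKN2A was not tested.

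The enzymes that mark cyclins for destruction differed within themselves. CDC20, which directs the anaphase-promoting complex to the B-type cyclins, read 109 in spheroid culture, under the floor, and 3017 in monolayer culture, at least 25.3-fold lower. UBE2C and UBE2S, the ubiquitin-conjugating enzymes of this complex, were 13.5-fold and 3.96-fold lower, and its inhibitor FBXO5 was 5.44-fold lower. The core subunits of the complex ranged from a log2 ratio of -0.59 (CDC23) to 0.31 (CDC26). SKP2, a receptor for the CDK inhibitor p27, was 1.96-fold lower, and FBXW7, a receptor for cyclin E, was 1.26-fold higher. Of 23 genes measured, CDC20, UBE2C, UBE2S and FBXO5 were the 4 past 3-fold, beside 2.11% of all genes at least 3-fold lower. The other 19 lay between, and the median log2 ratio of the list was -0.19. CDC20, UBE2S and FBXO5 are read only by probe sets ending in _s_at or _x_at, which can also bind related transcripts, so without such probe sets UBE2C was the 1 gene left past 3-fold.

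FOXM1 and MYBL2, transcription factors that are known to drive the late group, were themselves low in spheroid culture. FOXM1 read 113 in spheroid culture, under the floor, and 1949 in monolayer culture, at least 16.4-fold lower. MYBL2 read 47.6 in spheroid culture, again under the floor, and 1174 in monolayer culture, at least 9.85-fold lower. Whether FOXM1 or MYBL2 has a part in the low signals of the late group was not tested. E2F7 and E2F8, repressors that are themselves made in S phase, were at least 5.76-fold and at least 3.88-fold lower. E2F1 and E2F2, activating E2F factors, were 2.08-fold and 2.76-fold lower, and RBL1, which encodes p107, was 2.49-fold lower. RB1, which encodes the retinoblastoma protein, read 1309 in spheroid and 1368 in monolayer culture. Of the subunits of NF-Y, NFYA was 1.06-fold higher, and NFYB and NFYC were 1.44-fold and 1.28-fold lower. Subunits of DREAM went both ways. LIN37 was the highest of the list at 1.67-fold higher, RBBP4, LIN9 and LIN52 were 1.67-fold, at least 1.40-fold and 1.25-fold lower, and RBL2, which encodes p130, read 1969 in spheroid and 2067 in monolayer culture. Of 23 genes, FOXM1, MYBL2, E2F7 and E2F8 were the 4 past 3-fold, 18 lay between and 1, LIN54, was at the floor. Their median log2 ratio was -0.50. Under a floor raised to the 75th percentile FOXM1 was the 1 gene left past 3-fold, as MYBL2 and E2F7 were then at least 2.39-fold and at least 1.40-fold lower and E2F8 was at the floor on both arrays. The second E2F7 probe set read 75.5 in spheroid culture, under the floor, and 129 in monolayer culture, close to the floor.

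Proliferation markers were low with the late cyclins. MKI67, which encodes the Ki-67 antigen of cycling cells, read 278 in spheroid culture and 2105 in monolayer culture, 7.57-fold lower, and all 4 of its probe sets above the floor were lower. TOP2A, the topoisomerase of dividing cells, was 21.6-fold lower, AURKB, a mitotic kinase, 15.5-fold, BIRC5, which encodes survivin, 14.6-fold, and RRM2, a subunit of ribonucleotide reductase, 12.6-fold. Of 17 markers, 15 were at least 3-fold lower and 0 were higher, with a median log2 ratio of -2.54. The 2 others were MCM3, a subunit of the replicative helicase, at 2.58-fold lower and PCNA, the replication clamp, at 1.80-fold lower. The count of 15 became 10 with the geometric mean of all probe sets, and 10 without probe sets ending in _s_at or _x_at. Of 11 reference genes, 0 passed 3-fold, beside 2.11% lower and 2.34% higher among all genes, and the median log2 ratio was -0.24. HPRT1, an enzyme of purine salvage, was the lowest of them at 2.32-fold lower.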

How the data were processed

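Total RNA of A549 cells was measured on 1 array per culture. The linear signal intensities deposited by the authors come from MAS5 and GCOS, per the submitters' processing notes, with versions not given in the sources used here. The methods name GeneSpring GX for the later analysis. Signals were scaled no further. Values below the median of each array, taken without the 62 control probe sets, were raised to it. Genes came from the platform annotation. For 41043 of the 41097 probe sets with a single gene, the symbol was taken from RefSeq by Entrez identifier, changed or not. The 1801 probe sets with several genes and 11777 with none were not used. Samples were grouped by their titles.

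All 10 genes are named with every probe set. Of each of 9 lists, the genes named were taken from the 4 largest ratios per direction, with others named after their values were seen (among them CDC25A, CDKN2B, SKP2, the remaining E2F and RB family genes, CDC23, MCM3, PCNA and HPRT1). The members and lists were chosen with earlier results of these data known. The number of arrays limits the precision, and depth does not apply. Motifs were searched in RefSeq promoter windows. Alternatives were other floors, scalings, ways of reading a gene and fold limits. The steps were tested on simulated arrays. There, changes were placed only in genes far above the floor, so ratios limited by the floor were not tested. Python 3.11.15, numpy 2.4.6, pandas 2.3.3 and matplotlib 3.10.9 were used.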

Additional observations from a re-analysis of the deposited data

How the results depend on the processing

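No paired analysis was possible because each culture has 1 array, and for the same reason no array could be left out. A value counts as moved where it differs by more than 0.55, the SD between probe sets of a gene, or, for counts, by more than 1.5 times. Of 78 ratios of single cyclins and CDKs under the alternatives, 71 did not move and 0 of those past 3-fold changed sign. The brightest probe set of each of these genes was above the floor on both arrays. Its ratio could therefore not change with no floor or with the floor at the 25th percentile. With the geometric mean of all probe sets of a gene, in which probe sets at the floor on both arrays also count, the 5 genes at least 3-fold lower became 3, their median log2 ratio became -0.80, that of the proliferation markers -1.85, and the genes at least 3-fold higher among all genes 205. With probe sets above the floor alone in this mean, an alternative chosen after seeing the data, the count of cyclins and CDKs was 5, and their median -1.27. With no floor the median of the activators and partners of CDKs was -1.55. Among all genes, 279 at least 3-fold lower and 309 at least 3-fold higher became 1014 and 1312 with no floor, 421 and 558 where the floor was the 25th percentile, and 150 and 109 where it was the 75th. At limits of 2-fold and 5-fold the lower genes were 728 and 126, and the higher genes 908 and 103. Dividing each array by its median lowered the median log2 ratio of all genes above the floor to -0.10, where 0.04 was reported. CCNE2 was at the floor on both arrays with the floor at the 75th percentile, and CDK4 has no probe set left without those ending in _s_at or _x_at, so neither has a ratio there. Of 180 counts over the lists, which include those at the 2-fold and 5-fold limits, 164 did not move and 16 did. As reported, no list held a gene at least 3-fold higher and some held none lower. Many of the 164 were thus counts of 0 that stayed 0, and they tell little about how stable the other counts are. Under a floor raised to the 75th percentile the lower genes became 1 of the 4 transcription regulators, 1 of the 2 activators and partners, 1 of the 2 inhibitors, and 0 in place of CCNF among the other cell cycle cyclins and CDKs. Without _s_at and _x_at probe sets they became 1 of the 4 ubiquitin ligase genes, 0 of the 2 activators and partners and 1 of the 2 inhibitors, since 6 of the genes past 3-fold, with FOXM1, have no other probe set and CDC25C has only one at the floor. CCNF and E2F7 were lost under both geometric means, and CDC25C under the mean of all probe sets. FBXO5 was lost with the floor at the 75th percentile, where it was at least 2.73-fold lower and 3 ubiquitin ligase genes were left. At 5-fold 1 activator and 1 inhibitor were left, and at 2-fold 7 transcription regulators and 1 reference gene were lower, and 1 inhibitor and 1 transcription cyclin, CCNL2, were higher.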
